A study of Mus musculus with 40 samples.

Results

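Messenger RNA levels of 10 circadian clock genes were followed in mouse kidney across a dose range of TCDD (2,3,7,8-tetrachlorodibenzo-p-dioxin), a persistent dioxin that binds the aryl hydrocarbon receptor (AhR). The genes were Arntl (also named Bmal1), Npas2, Nr1d1, Nr1d2, Per1, Per2, Per3, Dbp, Tef and Ciart, chosen by symbol among 55359 gene identifiers in the count files, and all 10 were among the 17345 genes abundant enough to be tested. Bulk RNA sequencing had been done on the right kidney of 40 male C57BL/6 mice (C57BL/6NCrl in the study's design text) in 8 groups of 5. Every mouse, controls included, was gavaged with sesame oil every 4 days for 28 days, from 30 to 58 days of age. The vehicle group received sesame oil alone, and the other 7 groups received TCDD in it at 0.03, 0.1, 0.3, 1, 3, 10 or 30 µg/kg. The mice lived under 12 h of light and 12 h of darkness, and both gavage and tissue collection fell between ZT0 and ZT3, where ZT counts hours from lights on. The labels give no collection hour for a single mouse, and the part of the hour in any difference between groups was not tested.

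The clock inside cells is a transcriptional feedback loop. BMAL1, the product of Arntl, pairs with CLOCK or its relative NPAS2 and switches on genes that carry E-box motifs, among them the Per genes, Nr1d1, Nr1d2, Ciart, Dbp and Tef. PER proteins and CIART (also called CHRONO) then inhibit the BMAL1 complex, the nuclear receptors REV-ERBα (Nr1d1) and REV-ERBβ (Nr1d2) repress Arntl, and the bZIP factors DBP and TEF pass the rhythm on through D-box motifs. In kidney the clock sets daily rhythms of salt, water and solute handling, and AhR belongs to the same PAS protein family as BMAL1, NPAS2 and the PER proteins.

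The promoter stretches below show where the letters of these motifs lie in members described further on. They are from RefSeq on GRCm38.p6, run 5′ to 3′ on the gene's strand, and positions count from the annotated start of transcription, with negative numbers before it. Ciart holds 3 E-boxes (CACGTG), at -116, -58 and -44. Per1 holds an E-box at -166 and a D-box (TTATGCAA) at -24, and Per3 holds a pair of D-boxes (TTATGTAA) at -205 and -158. The site shown for Tef is an E-box at -127 of 1 of its starts, and the site shown for Arntl is a ROR/REV-ERB element (TAGGTCA), the kind of motif that REV-ERB proteins bind, at 31 after 1 of its starts. Capitals mark the motifs.
Ciart, chr3:95882259-95882438, minus strand: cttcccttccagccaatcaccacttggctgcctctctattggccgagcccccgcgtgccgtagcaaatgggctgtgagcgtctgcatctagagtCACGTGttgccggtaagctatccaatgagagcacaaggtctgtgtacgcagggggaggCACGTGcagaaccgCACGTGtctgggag
Per1, chr11:69098739-69098938, plus strand: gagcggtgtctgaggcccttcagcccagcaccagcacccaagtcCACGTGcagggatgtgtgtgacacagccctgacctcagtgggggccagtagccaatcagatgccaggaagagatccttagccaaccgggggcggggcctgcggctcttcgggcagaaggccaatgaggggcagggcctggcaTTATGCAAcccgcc
Per3, chr4:151044676-151044875, minus strand: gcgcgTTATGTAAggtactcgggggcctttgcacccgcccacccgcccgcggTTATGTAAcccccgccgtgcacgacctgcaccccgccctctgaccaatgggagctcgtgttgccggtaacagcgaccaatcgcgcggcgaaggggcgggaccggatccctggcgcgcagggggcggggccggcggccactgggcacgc
Tef, chr15:81802536-81802561, plus strand: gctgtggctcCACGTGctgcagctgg
Arntl, chr7:113207531-113207555, plus strand: aggcagaaagTAGGTCAgggacgga

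Windows of 300 bases (250 before and 50 after a start) were matched for 9 of the 10 members, all but Per2. Both strands were searched. These 9 have 12 windows, since some have more than 1 annotated start. CACGTG was in 4 of the 12 (Ciart, Per1 and both starts of Tef), and in 7.15% of all 32851 windows. TTATGTAA or TTATGCAA was in 2 of the 12, and in 1.66% of all windows. TAGGTCA or TGGGTCA was in 1 of the 12, and in 6.45% of all windows. The AhR core GCGTG was in 8 of the 12, in 1 window of each matched member but Arntl, and in 32.4% of all windows. No match overlapped another, and a match describes letters, not binding.

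The libraries held 15278423 to 25575317 gene counts each (median 17671162), and the level given for a gene is in CPM, its count relative to that total, scaled between libraries. CPM are not divided by gene length, so levels are compared between libraries and not between genes. Kidney markers (Lrp2, Slc34a1, Nphs1, Umod, Slc12a1, Slc12a3, Aqp2 and Atp6v1b1) were all detected, at a summed 1.08e+04 to 1.54e+04 CPM over all 40 libraries. Markers of adrenal cortex summed to 3.14 to 8.77 CPM in 37 libraries and stood apart in 3, at 782 (0.03 µg/kg, replicate 1), 850 (1 µg/kg, replicate 4) and 43.8 CPM (3 µg/kg, replicate 2). None of those 3 was a vehicle, 10 or 30 µg/kg library. Of the AhR response list, 6 of 8 genes rose at 30 µg/kg, led by Cyp1a1, the classical AhR target (log2 fold change 10.07 ± 0.31 SE), so exposure was visible in the files. In bulk tissue, fewer cells of a type and less RNA per cell cannot be told apart.

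Arntl, Npas2 and Per1 differed from vehicle at 30 µg/kg, and no member did at any lower dose. Arntl and Npas2, the activators, fell to 0.686 and 0.671 of the vehicle level, and Per1, a repressor that also answers acute signals, rose 2.4-fold (edgeR quasi-likelihood test, Benjamini-Hochberg adjusted p under 0.05 over all genes). At 0.03, 0.1, 0.3, 1, 3 and 10 µg/kg, 0 of 10 members passed with edgeR or with DESeq2. Of all genes tested, edgeR called 0.00%, 0.00%, 0.00577%, 0.513%, 1.09% and 4.82% at those doses. At an unadjusted p under 0.05 the count of members was also 0 at each of them, beside 5.67%, 5.53%, 5.23%, 7.10%, 8.95% and 15.7% of all genes. At 30 µg/kg, 3 of 10 members passed, beside 15.9% of all genes. Of members 1 was higher and 2 were lower, beside 8.39% and 7.55% of all genes. The members' median log2 fold change was -0.01, and that of all genes was 0.01. The plot of levels by dose shows each library.

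**Figure D1:**
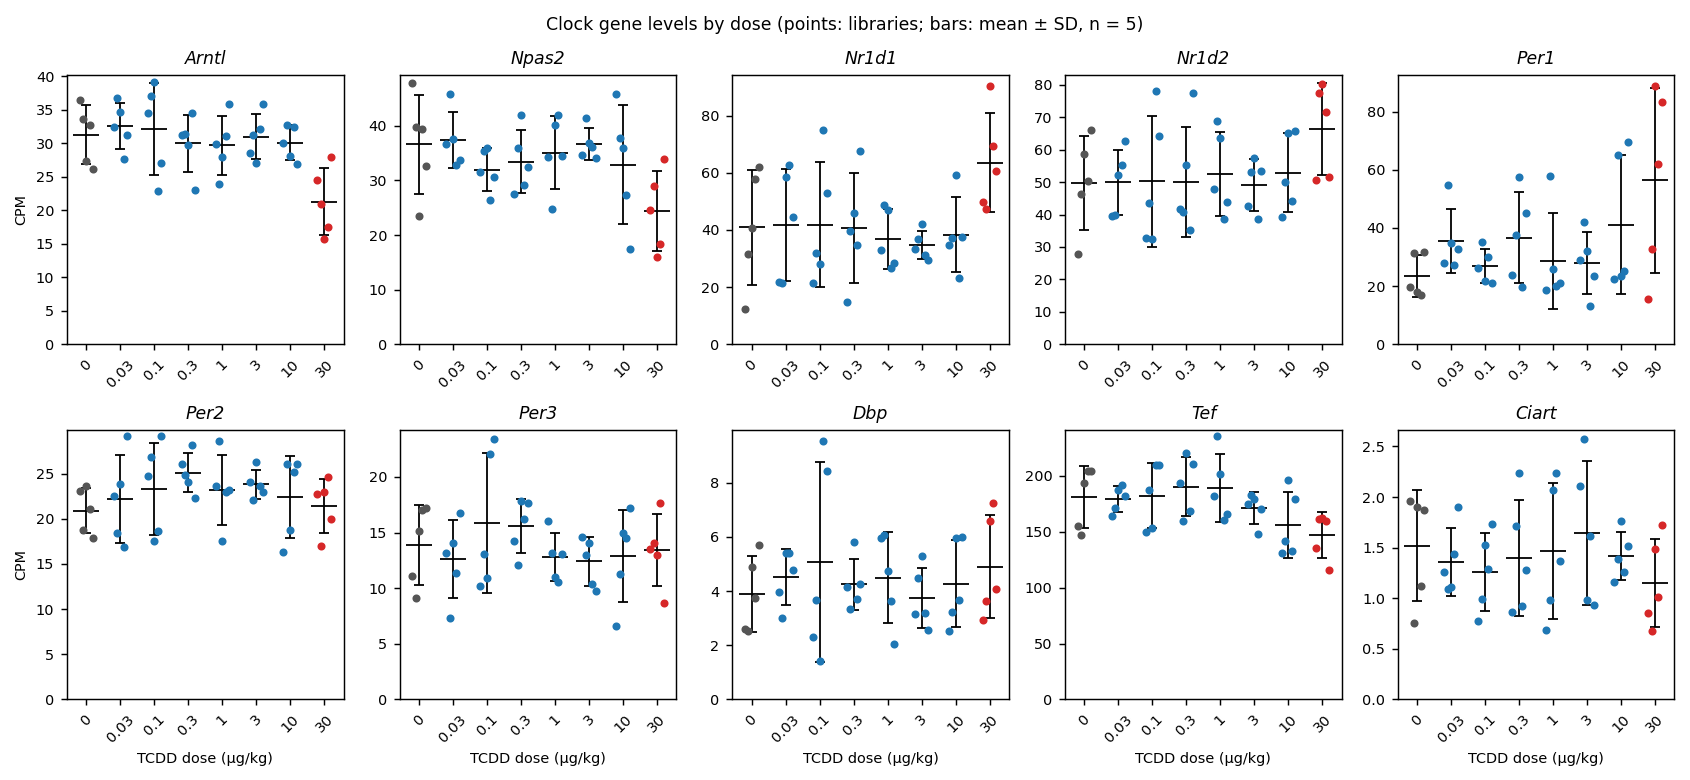
CPM of the 10 clock genes (vertical axes, each from 0) against TCDD dose in µg/kg (horizontal axis, 0 is vehicle). Points are libraries, 5 a dose, grey for vehicle, blue for 0.03 to 10 and red for 30 µg/kg, and bars are mean ± SD. The 5 Arntl values at 30 µg/kg lie between 15.7 and 28.0 CPM and 4 of them are below every vehicle library, while the Nr1d1 and Per1 values spread widely within groups.

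Arntl was measured at 36.4, 33.7, 27.3, 32.7 and 26.2 CPM in the vehicle libraries. At 30 µg/kg it was at 24.5, 21.0, 15.7, 17.5 and 28.0 CPM, and at 10 µg/kg at 30.1, 32.8, 28.1, 32.5 and 26.9 CPM. All 30 µg/kg libraries but replicate 5 lay below the lowest vehicle library, and the 10 µg/kg libraries lay within the vehicle range. Relative to vehicle the highest dose gave a log2 fold change of -0.54 ± 0.14 (SE; adjusted p = 0.00347). Against the 10 µg/kg group it was -0.49 ± 0.13 (adjusted p = 0.0347). There Arntl was the only member of 10 called, beside 2.70% of all genes in either direction and 1.52% lower. The mean level at the 7 other doses, vehicle included, ran from 29.7 CPM at 1 µg/kg to 32.6 CPM at 0.03 µg/kg. In the order of group means, the step from 30 µg/kg to the next group (1 µg/kg) was 0.50 on the log2 scale, larger than the within-group SD of 0.23, and every other neighbouring pair differed by less than that SD. The fall from vehicle was called in all 18 alternative analyses (log2 fold change -0.67 to -0.46, adjusted p = 0.000609 to 0.0474), whereas the fall from 10 µg/kg was lost in 10 of 18. Those were the fits without replicates 1, 2, 3 or 4 of the 10 µg/kg group or replicates 3 or 4 of the 30 µg/kg group (adjusted p = 0.055 to 0.179), without the 3 libraries with adrenal markers, on sense-strand counts, without the filter on low counts and with those 2 groups alone.

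Npas2 encodes the CLOCK-like partner of BMAL1. Its vehicle libraries were at 47.8, 39.8, 23.5, 39.4 and 32.6 CPM, and its 30 µg/kg libraries at 24.6, 29.0, 16.0, 18.4 and 34.0 CPM. At 10 µg/kg it was at 45.9, 37.8, 35.9, 27.3 and 17.4 CPM. The groups overlapped: vehicle replicate 3 was lower than 3 of the 5 libraries at 30 µg/kg, and 2 of those 5 were below every vehicle library. Npas2 changed by -0.58 ± 0.20 on the log2 scale at that dose (adjusted p = 0.0469). The call was lost in 10 of 18 alternatives (adjusted p = 0.0129 to 0.168 over all of them), including the fits that left out vehicle replicate 1, 2 or 4 or 30 µg/kg replicate 1, 3 or 4. Against 10 µg/kg it differed by -0.42 ± 0.20 (adjusted p = 0.322). Within the 30 µg/kg group, replicates 3 and 4 were lowest for both Arntl and Npas2 and replicate 5 was highest for both.

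Per1 is induced within the clock by BMAL1 and from outside it by hormones, glucocorticoids among them. It was at 19.7, 31.4, 18.1, 16.8 and 31.6 CPM in vehicle libraries. At 30 µg/kg it was at 15.5, 32.7, 88.9, 61.9 and 83.3 CPM, and at 10 µg/kg at 22.3, 64.9, 23.6, 25.3 and 69.4 CPM. At 30 µg/kg, 4 of 5 libraries were above every vehicle library and replicate 1 was below every one, so the group spanned the full range of the controls and beyond. At 10 µg/kg, replicates 2 and 5 stood well above the other 3. Per1 rose by 1.26 ± 0.41 on the log2 scale at the highest dose (adjusted p = 0.0332), and the value for 10 µg/kg was 0.81 ± 0.41 (adjusted p = 0.345). The call at 30 µg/kg was lost in 9 of 18 alternatives (adjusted p = 0.00608 to 0.163), including the fits that left out vehicle replicate 1, 3 or 4 or 30 µg/kg replicate 3, 4 or 5. Without 30 µg/kg replicate 3 the rise was 1.04 (adjusted p = 0.108), and without replicate 1, the low one, the adjusted p was 0.00608.

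The other repressors did not pass the test at any dose. Nr1d1 was at 12.3, 31.6, 40.8, 57.8 and 62.2 CPM in vehicle libraries and at 49.9, 47.5, 90.5, 69.4 and 60.8 CPM at 30 µg/kg, a log2 fold change of 0.64 ± 0.38 (adjusted p = 0.287). Its 30 µg/kg mean was the highest of the 8 groups, and the step to the next group (0.71) was larger than its within-group SD (0.63). Vehicle replicate 1, the lowest of all 40 libraries, and the other 4 vehicle libraries differed by up to 5.04-fold among themselves. Nr1d2 was at 27.7, 46.3, 58.8, 50.4 and 65.9 CPM in vehicle and 50.7, 77.4, 80.2, 71.5 and 51.6 CPM at 30 µg/kg (log2 fold change 0.41 ± 0.25, adjusted p = 0.296), with 3 of 5 libraries above every vehicle library. The direction of both REV-ERB genes was opposite to that of Arntl, and neither difference was called.

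Per2 and Per3, the other period genes, differed between vehicle and 30 µg/kg by less than the spread between replicates. Over all 8 groups the means of Per2 spanned 0.27 on the log2 scale, beside a within-group SD of 0.24, with the highest mean at 0.3 µg/kg, where 4 of 5 libraries were above every vehicle library and no test was passed. The means of Per3 spanned 0.35, beside an SD of 0.40. Per2 was at 17.9 to 23.6 CPM (median 21.1) in vehicle and 17.0 to 24.6 CPM (median 22.7) at 30 µg/kg, a log2 fold change of 0.03 ± 0.14 (adjusted p = 0.915). Per3 was at 9.12 to 17.2 CPM (median 15.1) in vehicle and 8.63 to 17.7 CPM (median 13.5) at 30 µg/kg, a log2 fold change of -0.06 ± 0.24 (adjusted p = 0.916). Ciart was the least sampled member, with 12 to 45 reads a library, and stood at 0.76 to 1.96 CPM in vehicle and 0.679 to 1.72 CPM at 30 µg/kg (log2 fold change -0.40 ± 0.35, adjusted p = 0.515). The difference was not called.

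Of the output factors, Tef was called lower in a trend over the dose series but at no single dose, and Dbp gave no call. Tef was at 155, 147, 193, 204 and 204 CPM in vehicle libraries, and 131, 142, 196, 133 and 179 CPM at 10 µg/kg. In the highest dose group it ran from 116 to 162 CPM with a median of 159 CPM. Below every vehicle library were 3 of the 5 mice given 10 µg/kg and 2 of the 5 given 30 µg/kg. The difference at 30 µg/kg was -0.30 ± 0.12 on the log2 scale (adjusted p = 0.095). Dbp, the factor whose rhythm is steep in most tissues, was at 2.59, 2.53, 4.88, 3.75 and 5.72 CPM in vehicle and 2.95, 3.62, 6.58, 7.24 and 4.09 CPM at 30 µg/kg (log2 fold change 0.32 ± 0.36, adjusted p = 0.625). The Dbp values within 0.1 µg/kg alone, 2.31, 3.66, 1.42, 9.55 and 8.42 CPM, covered the lowest and the highest of all 40 libraries. Under the GENCODE M21 annotation, 18% of the exonic bases of Dbp are shared with Sphk2 and 8.55% of those of Nr1d1 with Thra, both on the opposite strand. The sense and antisense columns held almost equal shares of the counts, so reads over those bases cannot be assigned to 1 gene.

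A linear trend over dose rank (vehicle 0 to 30 µg/kg 7) was tested in the same way. It called 2 of 10 members, both lower, beside 19.8% of all genes in either direction and 8.84% lower. Arntl had a slope of -0.05 ± 0.02 log2 units per dose step (adjusted p = 0.0224) and Tef of -0.04 ± 0.01 (adjusted p = 0.0365). Without the 30 µg/kg group the slopes were -0.01 for Arntl (adjusted p = 0.672) and -0.02 for Tef (adjusted p = 0.466), so neither trend was called over the lower doses. The Arntl trend was also lost on sense-strand counts and without replicate 2 or 4 of the 30 µg/kg group, and the Tef trend without any 1 of 9 libraries (adjusted p up to 0.0949), which were vehicle replicates 3, 4 and 5, 10 µg/kg replicates 1, 2 and 4 and 30 µg/kg replicates 1, 4 and 5. Per1 had a slope of 0.12 ± 0.04 (adjusted p = 0.0509) and passed in 16 of 48 alternatives.

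The wider clock machinery was read from a list of 20 further genes, all tested. At 30 µg/kg 1 of 20 was lower and 0 higher, beside 7.55% and 8.39% of all genes, with a median log2 fold change of -0.06. That 1 was Hlf, the relative of Dbp and Tef in the PAR bZIP family. Hlf was at 118, 101, 96.5, 99.3 and 114 CPM in vehicle libraries and at 78.2, 94.6, 57.2, 61.0 and 42.6 CPM at 30 µg/kg, with no overlap. The log2 fold change was -0.67 ± 0.13 (adjusted p = 0.00024), called in all 18 alternatives (adjusted p = 1.33e-06 to 0.043). At 10 µg/kg Hlf was at 82.6, 80.9, 108, 79.9 and 99.0 CPM, partly below the controls.

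Over dose rank 1 of these 20 was lower and 1 higher, beside 19.8% of all genes in either direction. Hlf was called lower (slope -0.07 ± 0.02, adjusted p = 0.00165) and Timeless, which acts at replication forks, higher (slope 0.06 ± 0.02, adjusted p = 0.0467). Clock, the other partner of BMAL1, gave -0.25 ± 0.12 at 30 µg/kg (adjusted p = 0.184). The cryptochrome genes, whose proteins join PER in repression, gave -0.50 ± 0.30 for Cry1 (adjusted p = 0.274) and 0.20 ± 0.13 for Cry2 (adjusted p = 0.351). Nfil3, which competes with the PAR bZIP factors at D-boxes, gave -0.50 ± 0.21 (adjusted p = 0.104). The forest plot of fold changes sets the members beside genes of this list.

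**Figure D2:**
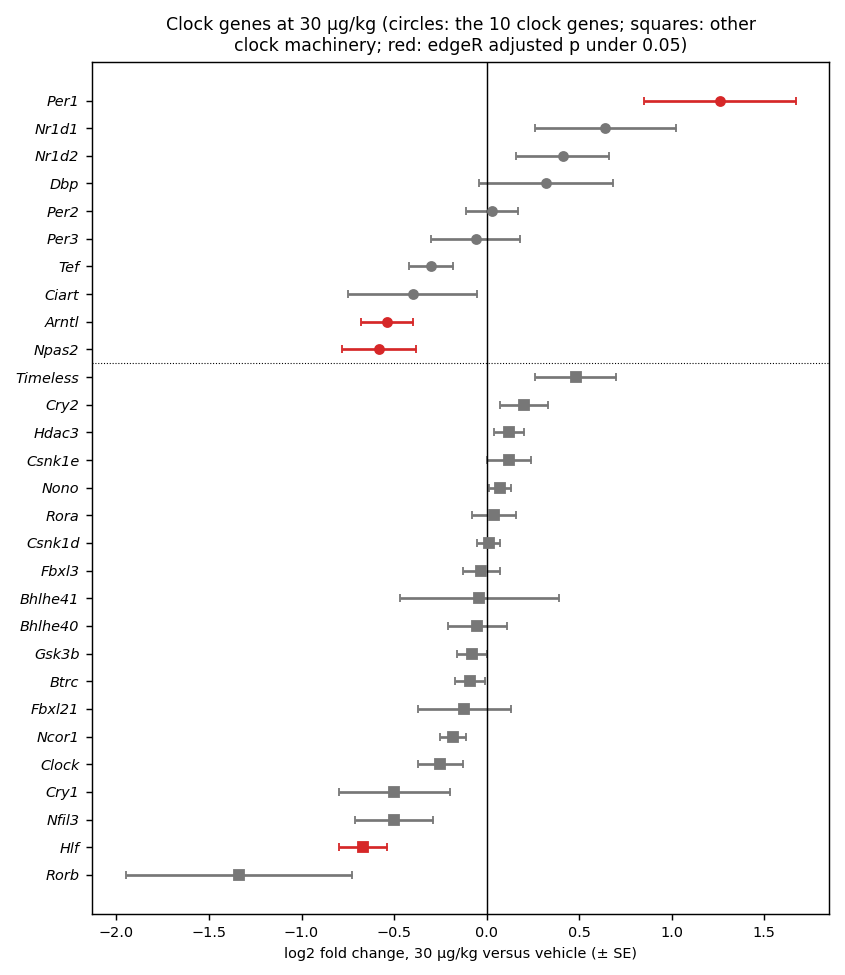
Log2 fold change at 30 µg/kg against vehicle (horizontal axis) with its standard error for the 10 clock genes (circles, upper block) and further clock machinery genes (squares, lower block). Red marks an edgeR adjusted p under 0.05: Per1 at 1.26 lies to the right of 0, and Arntl at -0.54, Npas2 at -0.58 and Hlf at -0.67 lie to the left.

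Genes downstream of the clock were read from a list of 14, of which 13 were tested. In the highest dose group 1 was higher and 1 lower, beside 8.39% and 7.55% of all genes (median log2 fold change -0.11). Over dose rank 2 were higher and 3 lower, beside 19.8% of all genes in either direction. Tspan4, a tetraspanin, rose by 0.55 ± 0.16 (adjusted p = 0.0151), and Slc9a3, the sodium-proton exchanger of the proximal tubule, fell, with -0.27 ± 0.10 (adjusted p = 0.049). Tspan4 ran from 19.2 to 56.1 CPM at 30 µg/kg, with 3 of 5 libraries above every vehicle library and 1 below every one. For Slc9a3, 4 of 5 were below every vehicle library. Alternative analyses of these calls are not given. The higher pair over dose rank was Tspan4 and Nampt, the enzyme of NAD salvage. Por, the electron donor of cytochromes P450, Lonrf3 and Scnn1a, a subunit of the epithelial sodium channel, were lower, with slopes of -0.03, -0.06 and -0.03.

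Within a dose group, mice differed from one another in most of these genes more than in most other genes of at least 10 CPM. The within-group SD of log2 CPM was 0.66 for Per1, 0.63 for Nr1d1, 0.61 for Dbp, 0.50 for Ciart, 0.40 for Per3, 0.39 for Nr1d2, 0.33 for Npas2, 0.24 for Per2, 0.23 for Arntl and 0.21 for Tef. The median over all genes tested was 0.25, and over the 9640 genes with a mean of at least 10 CPM it was 0.16. Among those 9640 genes Per1 lay at the 99.4th and Nr1d1 at the 99.3th percentile of spread, while Per2 lay at the 85.5th, Arntl at the 82.8th and Tef at the 74.6th. Dbp and Ciart are below that level and have no such percentile. Over all 40 libraries the highest level exceeded the lowest 7.34-fold for Nr1d1, 6.84-fold for Per1 and 6.75-fold for Dbp, against 2.49-fold for Arntl and 1.79-fold for Per2.

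These differences between mice were shared across members. On log2 CPM centred within each group (40 libraries), 22 of the 45 pairs of members were correlated at an adjusted p under 0.05 (permutation within groups), 12 positively and 10 negatively. Nr1d1, Nr1d2, Dbp, Tef and Per3 rose and fell together between mice, and Arntl was negatively related to all 5 of them. Npas2 was negatively related to Nr1d2, Dbp and Per3, and to Tef by r alone (r = -0.437, rho = -0.362, permutation adjusted p = 0.0481 and 0.107). The r of Npas2 with Nr1d1 (-0.240, adjusted p = 0.259) did not pass. The strongest relation joined Nr1d2 and Tef, with a Pearson r of 0.839 and a Spearman rho of 0.847 (permutation, adjusted p = 7.5e-05 and 5.62e-05), and r of 0.846 without the 2 libraries farthest from the median. Arntl and Nr1d2 had r of -0.787 and rho of -0.780 (permutation, adjusted p = 7.5e-05 and 5.62e-05), with r of -0.757 without those 2. Arntl and Dbp had r of -0.764 and rho of -0.782 (same adjusted p by permutation), with r of -0.716 without the farthest 2.

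Arntl and Npas2, the activators, were positively related (r = 0.568 and rho = 0.519, permutation adjusted p = 0.0009 and 0.00598, r = 0.493 without the farthest 2). The REV-ERB genes were related at r = 0.790 and rho = 0.775, and Dbp and Tef at r = 0.754 and rho = 0.795 (permutation, adjusted p = 7.5e-05 and 5.62e-05 for each). By Spearman's rho 20 pairs passed, and 20 passed by r without the libraries with adrenal markers. All 22 pairs kept their sign without the farthest 2 libraries and in both runs of sample titles (titles 1 to 27, 23 libraries, and 28 to 53, 17 libraries), which each hold every dose. The relation of Arntl and Nr1d2 was r = -0.608 in the first run and -0.826 in the second, and that of Nr1d2 and Tef 0.781 and 0.875. Without the 30 µg/kg group, r was -0.805 and 0.834. A permutation p of 1e-05 is the smallest that 100000 resamples can give, and it stands behind each adjusted p of 7.5e-05.

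**Figure D3:**
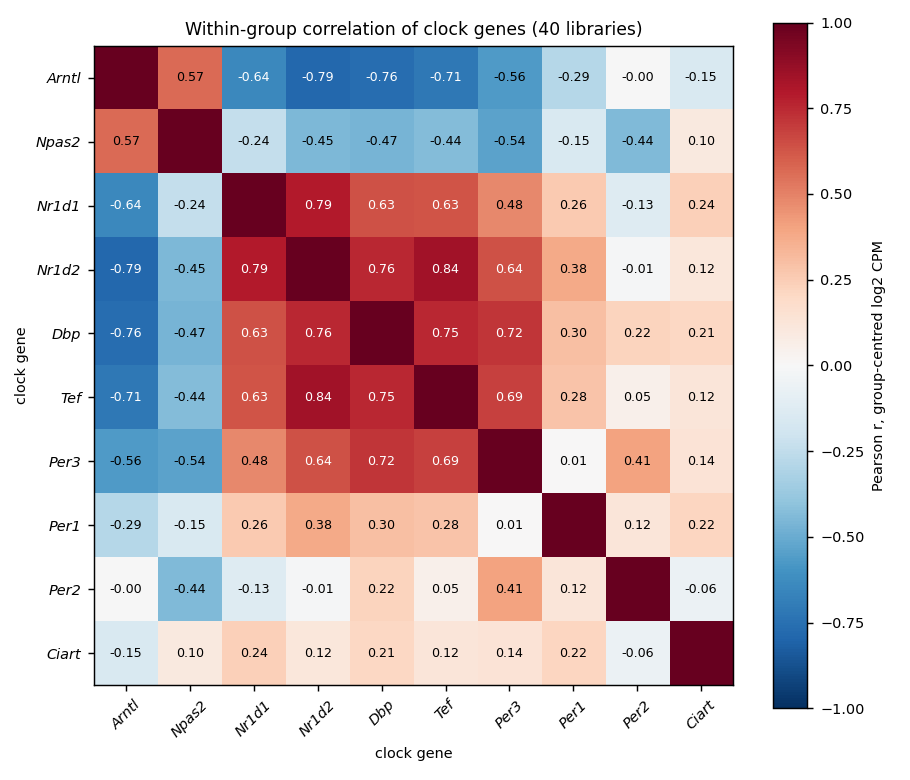
Pearson r between each pair of the 10 clock genes (both axes) on log2 CPM centred within dose groups, 40 libraries, from blue (-1) to red (1). Arntl is blue against Nr1d1, Nr1d2, Dbp, Tef and Per3, which form a red block, Npas2 is a paler blue against them (-0.240 with Nr1d1), and most cells of Per1, Per2 and Ciart are pale.

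Per1, Per2 and Ciart stood mostly outside this pattern. Per1 was related to Nr1d2 alone (r = 0.378, rho = 0.371, permutation adjusted p = 0.0336 and 0.0544, r = 0.398 without the farthest 2). Per2 was related to Npas2 alone (r = -0.442, rho = -0.443, permutation adjusted p = 0.0258 and 0.0264, r = -0.380 without the farthest 2). Ciart, with its few reads, was related to none of the other 9 at that threshold.

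Differences between pairs of members placed the 30 µg/kg mice apart in 1 case. The log2 difference Tef minus Nr1d2 was 1.16 ± 0.16 (SD, n = 5) at 30 µg/kg, where it ran from 1.01 to 1.41. It was 1.57 ± 0.11 at 10 µg/kg (1.45 to 1.74) and 1.90 ± 0.36 in vehicle (1.63 to 2.48). All 5 libraries at 30 µg/kg lay below the lowest of the other 35 (1.42), by a margin of the last digit given. The pair was picked after its values had been seen, so no test is given. Arntl minus Nr1d2 was -1.63 ± 0.64 (-2.35 to -0.88) at 30 µg/kg against -0.62 ± 0.67 (-1.33 to 0.39) in vehicle, with overlap, and Arntl minus Npas2 was -0.17 ± 0.19 against -0.20 ± 0.24. The scatter plots of gene pairs show these relations.

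**Figure D4:**
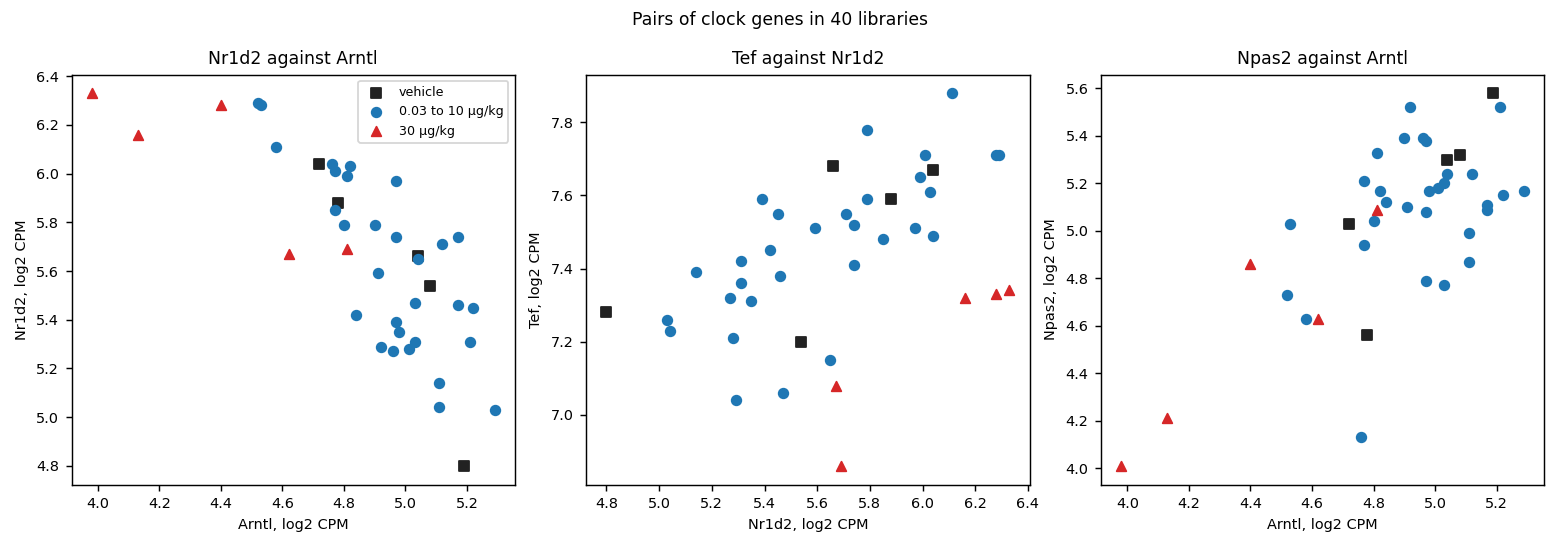
Log2 CPM of 3 pairs of clock genes, 1 point a library: Nr1d2 against Arntl, Tef against Nr1d2 and Npas2 against Arntl. Squares are vehicle, circles 0.03 to 10 µg/kg and triangles 30 µg/kg. In the middle panel the 5 triangles have a smaller Tef minus Nr1d2 difference (at most 1.41) than the other 35 points, and in the right panel they lie along the course of the other points, at its lower end for replicates 3 and 4.

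Among the genes whose within-group pattern was most like that of Arntl were Cry1 (r = 0.749), Srebf1 (0.728), Ppard (0.690) and Scd2 (0.640), over 40 libraries. Most opposite to Arntl were Klf11 (-0.668), Slc6a20a (-0.658), Txnip (-0.635), Tctn3 (-0.615) and Slc25a42 (-0.600). For Dbp the most alike were Ccdc162 (0.688), Gm37305 (0.664), Tns2 (0.663), Glt1d1 (0.599) and Firre (0.592). The most opposite to Dbp were Fbln7 (-0.657), Cry1 (-0.645), Cd47 (-0.644), Ppard (-0.632) and ENSMUSG00000118667 (-0.606). These were picked as extremes among all genes and are given as a description. Hlf, which fell at 30 µg/kg, had r of 0.00955 with Arntl and 0.00999 with Dbp between mice of a group (rho 0.0902 and 0.0287, permutation adjusted p = 0.969 for each r over 40 relations; adjusted p of rho 0.883 and 0.918; r of -0.0399 and -0.0622 without the farthest 2).

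Transcripts that respond to signals reaching the clock from outside were read from 4 lists, and at 30 µg/kg the shares of all genes called were 8.39% higher and 7.55% lower. On a list of glucocorticoid-induced genes, 4 of 9 tested rose and 0 fell (median log2 fold change 0.47). Fkbp5, Tsc22d3, Klf9, Errfi1 and Ddit4 were not called, with means of 1.2, 1.33, 1.26, 1.38 and 1.28 times the vehicle mean. Cdkn1a, a cell cycle inhibitor, gave 1.82 ± 0.23, and the metallothionein Mt1 gave 1.30 ± 0.13, both with 5 of 5 libraries above every vehicle library. At 10 µg/kg 2 of 9 were called, Cdkn1a and Mt1, beside 4.82% of all genes in either direction. The transcription factor gene Zbtb16 was at 11.0, 4.96, 3.41, 5.26 and 4.42 CPM in vehicle and 4.89, 5.15, 57.6, 25.0 and 10.3 CPM at 30 µg/kg, where only replicates 3 and 4 were above every vehicle library. It gave 1.82 ± 0.63 (adjusted p = 0.0467), and 0.96 without 30 µg/kg replicate 3 (adjusted p = 0.331). The kinase gene Sgk1 gave 0.87 ± 0.30 (adjusted p = 0.0398), and 0.49 without that replicate (adjusted p = 0.263). Each of the Zbtb16 and Sgk1 calls was lost in 10 of 18 alternatives. With single libraries left out, both were lost without vehicle replicate 2, 3, 4 or 5 or 30 µg/kg replicate 3, Zbtb16 also without 30 µg/kg replicate 4 and Sgk1 without vehicle replicate 1 or 30 µg/kg replicate 5. On a list of fasting-induced genes 6 of 7 rose (median 2.68), and at 10 µg/kg 0 of 7 passed. Cyp4a14 rose by 5.60 ± 0.71, Pdk4 by 3.43 ± 0.55 and Angptl4 by 2.68 ± 0.47. The 30 µg/kg mice differed widely, at 141 to 3390, 32.9 to 721 and 24.8 to 410 CPM for these genes in turn. Above every vehicle library were 5 of 5 libraries for Cyp4a14 and 4 of 5 for Pdk4 and for Angptl4. On a list of temperature-responsive genes, 1 of 8 was higher and 4 lower (median -0.55): cold-inducible Cirbp gave 0.79 ± 0.20 (adjusted p = 0.00402), and the chaperone genes Hspa8, Hsph1 and Dnajb1 gave -0.49, -0.59 and -0.63. Of 7 immediate early genes 0 passed at 30 µg/kg. Egr1, Fos and Nr4a1 gave 1.47 ± 0.76, 1.40 ± 0.90 and 0.84 ± 0.56, and none of them passed. All 5 Fos libraries at 30 µg/kg (1.19 to 2.02 CPM) were nevertheless above every vehicle library (0.389 to 0.98 CPM). For Egr1 and for Nr4a1, 3 of 5 were. The fit shares its spread over all groups, and at 0.03 µg/kg the highest Fos value was 35.2 CPM (median 1.21 CPM). Fosb gave 0.16 ± 1.33, and a falling trend over dose rank (slope -0.72 ± 0.17, adjusted p = 0.00195) that rested on 1 library. At 0.03 µg/kg the highest Fosb value was 53.4 CPM and the median 0.34 CPM, and without that library (replicate 4) the slope was -0.05 (adjusted p = 0.785). The part of these signals in the clock gene differences was not tested.

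Per1 varied between mice together with some genes of the glucocorticoid list and of the temperature list, and with no immediate early gene. Sgk1 was at 99.4, 159, 460, 193 and 285 CPM at 30 µg/kg and at 121, 204, 90.1, 133 and 215 CPM at 10 µg/kg. Like Per1, it was highest in replicates 3, 4 and 5 at 30 µg/kg and in replicates 2 and 5 at 10 µg/kg, and lowest in replicate 1 at 30 µg/kg. Within groups, Per1 had r of 0.809 with Sgk1 (rho 0.783, r of 0.716 without the farthest 2), 0.789 with Tsc22d3 (rho 0.721, 0.700 without 2), 0.726 with Klf9 (rho 0.694, 0.669 without 2) and 0.690 with Errfi1 (rho 0.652, 0.589 without 2). Each of these had a permutation adjusted p of 0.00018 for r over 24 relations, and 0.00024 to 0.0006 for rho. On the temperature list r was 0.495 with Cirbp (rho 0.462, 0.367 without 2), -0.364 with Hspa8 (rho -0.392, -0.344 without 2), -0.386 with Hspa1a (rho -0.416, -0.378 without 2) and -0.444 with Dnajb1 (rho -0.373, -0.343 without 2). Their permutation adjusted p of r was 0.0484, 0.0476, 0.0484 and 0.0432, and of rho 0.0388 for the first 3 and 0.0629 for Dnajb1. Hspa1a has a near-identical copy, Hspa1b, so its counts are uncertain. Cdkn1a had r of 0.482 (rho 0.476, 0.402 without 2, permutation adjusted p = 0.0432 and 0.0388). Fkbp5 and Mt1, also on that list, had r of 0.215 and -0.109 (rho 0.127 and -0.119, permutation adjusted p = 0.468 and 0.636 for r and 0.609 for both rho). Zbtb16 and Ddit4 of the glucocorticoid list did not pass either (r = 0.449 and 0.409, permutation adjusted p = 0.0653 and 0.107). On the temperature list Rbm3, Hsph1, Hsp90aa1 and Hspa1b did not pass (r = 0.342, -0.353, -0.312 and -0.348, permutation adjusted p = 0.24, 0.106, 0.193 and 0.0653). For the immediate early genes the permutation adjusted p of r ran from 0.14 (Atf3) to 0.938 (Egr1). The 24 relations were chosen after the correlations between members had been seen.

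Markers of other cells differed with dose as well. Of all genes, 8.39% were called higher and 7.55% lower at 30 µg/kg, and 4.82% in either direction at 10 µg/kg. At 30 µg/kg 7 of 8 macrophage markers and 4 of 6 endothelial markers were higher, with median log2 fold changes of 1.43 and 0.52. At 10 µg/kg 6 of 8 and 5 of 6 were higher, with medians of 1.43 and 0.53. Macrophage markers summed to 196 to 241 CPM in vehicle, 484 to 921 at 10 and 309 to 684 at 30 µg/kg. Cortex markers summed to 21900 to 31800 CPM in vehicle and 9480 to 24100 at 30 µg/kg, with 1 of 8 higher and 4 lower, while 0 of 8 medulla markers passed. Of 7 fat markers, Ucp1 was higher and Lep lower, at a summed 116 to 319 CPM in vehicle and 221 to 677 at 30 µg/kg. With a medulla-minus-cortex marker score in the fit, the 30 µg/kg difference was -0.54 for Arntl (adjusted p = 0.00636), -0.53 for Npas2 (adjusted p = 0.0855) and 1.17 for Per1 (adjusted p = 0.0583). That score includes the cortex markers that were themselves lower at 30 µg/kg, so the fit cannot separate tissue composition from dose. The part of macrophage, endothelial and fat RNA in the clock gene differences was not tested.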

How the data were processed

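RNA was measured in 40 kidney libraries, and groups and doses were taken from the labels. The labels describe each sample as its own mouse. The authors deposited 1 file of whole-number gene counts a library, in STAR's layout. The submitters' processing notes name FastQC 0.11.7, Trimmomatic 0.39, STAR 2.7.3a and DESeq2, and both GRCm39 and mm10, so no coordinate is tied to the counts. The unstranded count column was used (50.4 to 51.0% of stranded counts were sense). Sense here names the stranded column with the larger total. Fits on sense counts therefore used fewer of the same reads and did not separate strands. A deposited table of values whose transformation is not stated was not used. Gene names came from GENCODE M21 (52083 of 55359 identifiers). Lines naming no gene were left out: 1.41 to 2.66% unmapped, 6.98 to 9.70% multimapping, 5.28 to 7.27% without feature and 5.4 to 5.98% ambiguous. No 2 replicates agreed within sampling noise (80 pairs, chi-square per degree of freedom 7.34 to 87.9). The number of reads limits the precision of low genes.

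With edgeR 4.0.16 (R 4.3.3, limma 3.58.1), genes passing filterByExpr were scaled by TMM (factors 0.966 to 1.091). A quasi-likelihood F-test was fitted to all 8 groups, with Benjamini-Hochberg adjustment over 17345 genes and a threshold of 0.05. Given CPM use TMM-scaled library sizes, marker sums plain ones, and log2 CPM a prior count of 2. Correlations used group-centred log2 CPM and 100000 permutations within groups (numpy 2.4.6). Scripts were tested on simulated data. Alternatives were RLE factors, no filter, DESeq2 1.42.0, sense counts, covariates, group pairs alone and each library left out. Leaving out 3 libraries with adrenal markers (over 20 CPM), all alternatives for Sgk1 and Zbtb16, and the Fosb trend without its highest library were added after seeing the data. Members and lists were chosen with earlier results of these data known. Named genes were all members, every called machinery or output gene, at most 4 a cue list by lowest trend p, and the 5 most and least like Arntl and Dbp. A few genes that this rule or the plots would include are not reported here. The Per1 relations, marker genes and uncalled machinery genes given by name lie outside that rule and were chosen after their values were seen.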

Additional observations from a re-analysis of the deposited data

Results flagged for a closer look

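In 2 of 80 sets of 5 libraries (10 members in 8 groups), 1 library stood far from the other 4, by a gap over the group's range above 0.71. Both were Per1. It was at 54.6 CPM in replicate 2 of the 0.03 µg/kg group, where the next highest library was at 34.9 CPM, and at 57.7 CPM in replicate 2 of the 1 µg/kg group, where the next was at 25.9 CPM. Chance sets apart about 1 in 20 groups, or 4 of 80. Neither library was among the 3 with adrenal cortex markers.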

How the results depend on the processing

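Members called at 30 µg/kg numbered 3, and 1 without the filter on low counts, with the medulla-minus-cortex score and with only those 2 groups fitted. Over dose rank they numbered 2, and 3 with DESeq2, 1 without the filter, 1 on sense counts and 0 without the 30 µg/kg group. Against 10 µg/kg the number was 1, and 0 without the filter, on sense counts, with only those groups, and without the libraries with adrenal markers. Leaving out single libraries gave 1 to 3 at 30 µg/kg, 0 to 3 over dose rank and 0 to 1 against 10 µg/kg. Of all genes, DESeq2 called 7 at 0.03 µg/kg (edgeR 0, and 0 to 1 with a library left out), 3 at 0.3 (edgeR 1, or 2 with the marker score) and 284 at 3 µg/kg (edgeR 189, or 113 with those groups alone, and 119 to 199 with a library left out). Group pairs alone gave 969 genes at 30 µg/kg (2766 in the full fit) and 0 against 10 µg/kg (469), and the trend without 30 µg/kg gave 1399 (3439). With a library left out, the count against 10 µg/kg ran from 146 (without 30 µg/kg replicate 3) to 1194 (without 30 µg/kg replicate 1). The fits of group pairs alone held fewer libraries, and the fits on sense counts held fewer reads. The cause of the other shifts was not tested. Correlated pairs numbered 22, and 5 in the first and 0 in the second title run alone, with fewer libraries in each. The signs of Per2 and Per3 at 30 µg/kg turned with a library left out (-0.02 to 0.11 and -0.18 to 0.07), both far from any call. Single turned values were -0.00, -0.02 and -0.02 for Per2 and 0.02, 0.03 and 0.07 for Per3. No paired analysis was possible because each title number belongs to 1 mouse and no number is shared across groups.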
